A study of Mus musculus with 8 samples.

Results

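Aminoacyl-tRNA synthetases are the enzymes that join each amino acid to its transfer RNA (tRNA), the step that supplies ribosomes with building blocks. The 36 genes described here were taken by symbol from the 34745 genes of an RNA-seq table: 20 encode enzymes of the cytosol and 16, with names ending in 2, encode enzymes of the mitochondrion. The symbols are older ones without a final 1, so that Sars stands for the cytosolic seryl-tRNA synthetase and Sars2 for the mitochondrial one. All 36 passed the filter on low counts and were tested among 14690 genes.

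The cells were CD4+ T cells from the spleen of wild-type C57BL/6 mice, in 4 groups of 2 libraries each. Naive cells came straight from the spleen without culture (replicates 1 and 2). Th0 cells had 3 days of stimulation with antibodies to CD3 and CD28, which engage the T cell receptor complex and its main costimulatory receptor (replicates 1 and 3). Th17 cells and Treg cells had spent 3 days in media that drive IL-17-producing helper cells or Foxp3-expressing regulatory cells (replicates 2 and 3 of each). The cytokines of those media, mouse ages and the number of animals behind a library are not given in the sources used here. Whether replicates of a group stem from different mice or cultures is not stated by any label, so the p-values speak to the spread among these libraries, possibly a technical one.

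The 8 libraries held 12504463 to 22443368 counts each, and replicates of a group correlated at r of 0.9893 to 0.9917 across genes, which are not independent points. A count of 0 in a library leaves room for 0.13 to 0.231 CPM, taking 3 counts as the limit and covering counting error only, where CPM is the count after scaling every library to the same total. Cd4 stood at 616 to 885 CPM in every library. The label checks showed cells beside the named type, and they come before the results because they touch them. In the naive libraries the 12 B cell markers summed to 4110 and 3380 CPM and the 19 myeloid and dendritic cell markers to 5990 and 5630 CPM, against 559 to 1330 and 55.9 to 194 CPM in the 6 cultured libraries. The 7 red blood cell markers summed to 346 and 291 CPM in the naive libraries, against 0.757 to 4.32 CPM in the cultured ones. For the 7 NK cell markers the sums were 104 and 99.5 CPM against 97.3 to 154 CPM. The Treg regulator Foxp3 reached 95 and 101 CPM in naive libraries and 317 and 270 CPM in Treg, against 4.7 to 9.93 CPM in the Th0 and Th17 libraries. The Treg libraries also held Il17a, the signature cytokine gene of Th17 cells, at 57.4 and 34.3 CPM, a range that overlapped the 60.9 and 33.7 CPM of the Th17 libraries. In bulk RNA, fewer cells of a type and less RNA per cell cannot be told apart.

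As background, the cytosolic and mitochondrial sets are mostly products of separate genes, although Gars and Kars each make both forms and the glutaminyl-tRNA of mouse mitochondria is made indirectly, from glutamyl-tRNA charged by Ears2. In the cytosol, several of the enzymes sit together in the multi-tRNA synthetase complex on non-enzyme scaffold proteins. Many cytosolic synthetase genes are known targets of ATF4, the transcription factor that rises when amino acids run short or protein folding is disturbed, and stimulated T cells are known to raise protein synthesis as they grow.

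ATF4 acts with C/EBP proteins through a composite DNA element, and the letters of that element (TGATGNAA, read on both strands) were searched in the promoter windows of RefSeq on GRCm38.p6, which span 250 bases before to 50 after each start site. Of the 36 genes, 27 matched a window (Mars under its present name Mars1), 13 cytosolic and 14 mitochondrial. The element was found in 5 of the 13 cytosolic windows (38.5%), namely Aars, Gars, Iars, Tars and Yars, and in 0 of the 14 mitochondrial ones. It occurred in 3.97% of all 32851 windows, in 2.31% of the 13103 windows of genes tested here, and in 2.27% of the 4232 windows of genes called higher in Th0 against naive. The 5 windows that held the element are printed with it in capitals, followed by Sars, which rose the second most of the cytosolic genes and has no match in its window. The windows are 300 bases long, read 5′ to 3′ along the gene, at chr8:111033592-111033891 (+) for Aars, chr6:55037751-55038050 (+) for Gars, chr13:49681880-49682179 (+) for Iars, chr15:11399609-11399908 (-) for Tars, chr4:129189653-129189952 (+) for Yars and chr3:108445210-108445509 (-) for Sars.
Aars: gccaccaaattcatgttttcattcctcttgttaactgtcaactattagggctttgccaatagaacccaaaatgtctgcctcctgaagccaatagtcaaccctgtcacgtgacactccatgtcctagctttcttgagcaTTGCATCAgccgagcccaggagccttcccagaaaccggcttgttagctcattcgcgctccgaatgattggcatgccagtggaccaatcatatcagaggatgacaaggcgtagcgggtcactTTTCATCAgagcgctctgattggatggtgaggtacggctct
Gars: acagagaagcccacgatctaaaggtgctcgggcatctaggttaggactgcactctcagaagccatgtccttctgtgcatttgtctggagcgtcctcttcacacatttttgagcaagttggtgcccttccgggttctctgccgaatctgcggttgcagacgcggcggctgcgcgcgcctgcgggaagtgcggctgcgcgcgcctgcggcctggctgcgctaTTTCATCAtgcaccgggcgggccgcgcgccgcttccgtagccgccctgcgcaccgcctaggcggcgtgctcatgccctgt
Iars: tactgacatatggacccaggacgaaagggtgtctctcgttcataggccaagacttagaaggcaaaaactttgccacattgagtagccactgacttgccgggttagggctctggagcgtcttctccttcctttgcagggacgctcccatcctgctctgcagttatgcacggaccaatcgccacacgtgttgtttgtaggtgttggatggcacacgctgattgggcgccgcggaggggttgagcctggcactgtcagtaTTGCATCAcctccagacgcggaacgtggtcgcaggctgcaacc
Tars: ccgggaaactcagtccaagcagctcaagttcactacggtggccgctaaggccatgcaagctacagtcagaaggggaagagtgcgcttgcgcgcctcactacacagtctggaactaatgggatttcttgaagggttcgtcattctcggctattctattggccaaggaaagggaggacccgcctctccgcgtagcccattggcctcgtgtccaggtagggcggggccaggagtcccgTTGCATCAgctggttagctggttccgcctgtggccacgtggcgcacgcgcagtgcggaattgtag
Yars: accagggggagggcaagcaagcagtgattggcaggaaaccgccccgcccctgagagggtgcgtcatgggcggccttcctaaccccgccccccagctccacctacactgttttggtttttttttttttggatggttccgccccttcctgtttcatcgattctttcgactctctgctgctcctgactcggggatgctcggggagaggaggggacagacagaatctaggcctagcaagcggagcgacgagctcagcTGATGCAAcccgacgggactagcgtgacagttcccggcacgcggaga
Sars: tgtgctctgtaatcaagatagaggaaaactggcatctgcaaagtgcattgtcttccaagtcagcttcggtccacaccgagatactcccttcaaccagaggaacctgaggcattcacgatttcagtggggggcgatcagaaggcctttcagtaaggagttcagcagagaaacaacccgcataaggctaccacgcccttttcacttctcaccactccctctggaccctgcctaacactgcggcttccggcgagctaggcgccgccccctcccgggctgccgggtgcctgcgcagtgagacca
Counted from the start site, with no position 0, the first base of the element lay at -112 and at 10 in Aars, -30 in Gars, 8 in Iars, -15 in Tars and 4 in Yars. In 4 of the 5 genes the element stood on the strand opposite to the gene, and in Yars on the same strand. A match is a run of letters, not a shown binding site, and the windows of Cars, Hars, Lars, Nars, Rars, Vars, Wars, Hars2 and Pars2 were not in the table. The E-box CACGTG, which reads the same on both strands and is bound by Myc and related factors, was found in 4 of the 13 cytosolic windows (Aars, Farsb, Iars and Tars) and in 1 of the 14 mitochondrial ones (Ears2). It occurred in 9.65% of the windows of genes tested, and no base was shared with a match of the other element.

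Stimulation of naive cells went with higher levels of most cytosolic synthetase genes and of few mitochondrial ones. Of the 20 cytosolic genes, 15 rose, 2 fell and 3 did not pass the test, with a median log2 change of 0.93. Among all genes tested, 31.3% were higher and 36.4% lower in Th0 cells, and their median log2 change was -0.08 (edgeR, Benjamini-Hochberg adjusted p under 0.05, as throughout). Of the 16 mitochondrial genes, 3 rose, 5 fell and 8 did not pass, with a median of 0.04. Levels in the following are CPM scaled by TMM factors, which compares libraries but not genes.

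**Figure D1:**
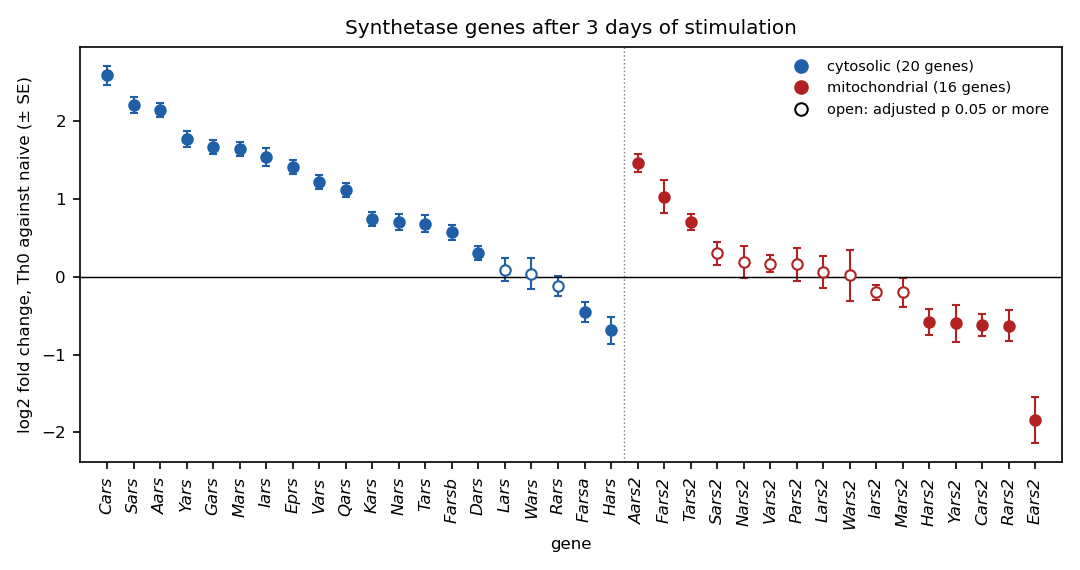
Log2 fold change of Th0 against naive cells for each of the 36 synthetase genes, cytosolic and mitochondrial genes apart, with bars of 1 standard error. Filled points passed edgeR's adjusted p under 0.05, and Cars, Sars and Aars lie highest at 2.59, 2.21 and 2.14 while Ears2 lies lowest at -1.84.

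The greatest rise was that of Cars, which charges cysteine and lies at chr7:143557230-143600090 (-). Its level was 32.1 and 31.1 CPM in naive cells, 207 and 175 in Th0, 109 and 126 in Th17 cells and 100 and 104 in Treg cells. Cars thus stood highest in Th0, lowest in naive cells, and no library of one of these groups reached the other. The log2 change from naive to Th0 was 2.59 (SE 0.12, edgeR adjusted p = 1.43e-07). Sars, which charges serine and also begins the route to selenocysteine, lies at chr3:108424865-108445209 (-). It had 126 and 137 CPM in naive cells, 648 and 570 in Th0, 391 and 410 in Th17 cells and 295 and 335 in Treg cells. The 4 groups of Sars values did not overlap, and Th0 was above naive by 2.21 (SE 0.1, adjusted p = 1.73e-07).

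Aars charges alanine and lies at chr8:111033144-111057664 (+), where 14.3% of its annotated exon bases are shared with Exosc6 on the same strand, so part of its count may be that gene's. Its level was 97.8 and 108 CPM in naive cells, 473 and 433 in Th0, 315 and 338 in Th17 cells and 293 and 299 in Treg cells. Th0 exceeded naive by a log2 change of 2.14 (SE 0.09, adjusted p = 1.08e-07), with all 6 cultured libraries above both naive ones. Yars, the tyrosine enzyme at chr4:129189760-129219607 (+), went from 48.7 and 51.6 CPM in naive cells to 182 and 161 in Th0, with 140 and 136 in Th17 and 130 and 135 in Treg. Its rise was 1.77 (SE 0.1, adjusted p = 3.96e-07).

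Gars, the glycine enzyme for both compartments, lies at chr6:55038007-55079500 (+). It had 91.2 and 87.7 CPM in naive cells, 303 and 268 in Th0, 233 and 221 in Th17 cells and 240 in each Treg library. The rise to Th0 was 1.67 (SE 0.09, adjusted p = 4.13e-07). Mars, which charges methionine for both starting and extending proteins, had 57 and 54.5 CPM in naive cells, 180 and 167 in Th0, 132 and 129 in Th17 cells and 138 and 147 in Treg cells. Its rise was 1.64 (SE 0.09, adjusted p = 4.28e-07). In Gars and Mars, as in Yars, the Th17 and Treg libraries lay between the naive and the Th0 ones.

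The other 9 cytosolic genes that rose spanned log2 changes of 0.3 to 1.54. They were Iars (isoleucine, 1.54), Eprs (glutamate and proline in 1 protein, 1.41), Vars (valine, 1.22), Qars (glutamine, 1.12), Kars (lysine, 0.74), Nars (asparagine, 0.7), Tars (threonine, 0.68), Farsb (the beta subunit for phenylalanine, 0.57) and Dars (aspartate, 0.3). The call of Dars, whose edgeR adjusted p was 0.012, ended when naive replicate 1, naive replicate 2 or Th0 replicate 1 was left out (adjusted p = 0.0691, 0.0706 and 0.0548). The genes that did not pass were Lars (leucine), Rars (arginine) and Wars (tryptophan), at 0.09, -0.12 and 0.04. Wars is known in human cells as a gene induced by interferon gamma, and here it ran from 36.3 to 54.1 CPM over the naive and Th0 libraries, with Th0 on both sides of naive.

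The cytosolic genes that fell were Hars and Farsa. Hars, which charges histidine, had 61.9 and 63.6 CPM in naive cells, 41.5 and 36.3 in Th0, 70.8 and 48.1 in Th17 cells and 91.2 and 77.6 in Treg cells. Its level was lowest in Th0 and highest in Treg, with log2 -0.69 for Th0 against naive (SE 0.17, edgeR adjusted p = 0.0061). Hars and Hars2 lie head to head and share 195 exon bases on opposite strands, and the strandedness of the libraries is not given in the sources used here. Farsa encodes the alpha subunit of the phenylalanine enzyme, which works as a tetramer of equal numbers of Farsa and Farsb chains. It had 54.7 and 49.9 CPM in naive cells and 39.9 and 36.9 in Th0, with log2 -0.45 (SE 0.13, adjusted p = 0.0121), a call that ended without naive replicate 1 (adjusted p = 0.0769) or Th0 replicate 3 (0.0735). Farsb moved the other way, from 56.2 and 54 CPM to 80.5 and 82.8, with log2 0.57 (SE 0.1, adjusted p = 0.000703). Of its exon bases, 9.5% lie opposite exons of Sgpp2, so its count may hold reads of that gene. Per kilobase of transcript, the ratio of Farsb to Farsa was 0.922 and 0.971 in naive cells, 1.81 and 2.01 in Th0, 1.71 and 1.46 in Th17 cells and 1.39 and 1.74 in Treg cells. From the deposited FPKM, which use other gene lengths, the same ratio was 1.92 and 2.02 in naive cells and 2.9 to 4.2 in the cultured libraries. Every cultured library lay above both naive ones. Each scale uses 1 fixed length a gene, so this order is the same on both by construction, while the level of the ratio turns on the length used.

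**Figure D2:**
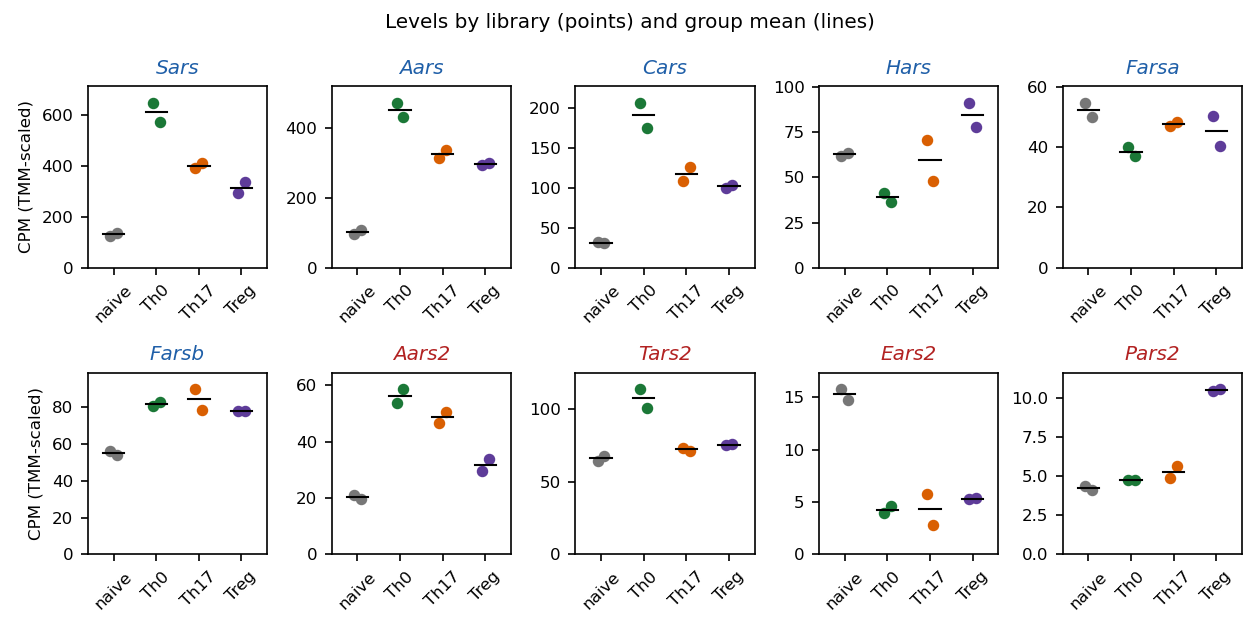
TMM-scaled CPM of selected synthetase genes in each of the 8 libraries, grouped as naive, Th0, Th17 and Treg, with 1 point a library and a line at the group mean. Sars, Aars and Cars are highest in Th0 and lowest in naive cells, whereas Hars is lowest in Th0 and Pars2 stands at 10.5 and 10.6 CPM in Treg against 4.12 to 5.68 CPM elsewhere.

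Of the 8 genes whose enzymes sit in the multi-tRNA synthetase complex (Eprs, Iars, Lars, Mars, Qars, Rars, Kars and Dars), 6 rose in Th0 and Lars and Rars did not pass the test. The complex rests on 3 scaffold proteins, and their genes were measured beside it. Aimp1 rose with log2 1.71 (SE 0.11, edgeR adjusted p = 1.25e-06), from 41.3 and 43.8 CPM in naive cells to 149 and 130 in Th0. Eef1e1 rose by 0.62 (adjusted p = 0.00408), and Aimp2 stood at -0.26 (adjusted p = 0.256). By fold of the catalytic domain, 11 of 17 class II genes rose and 3 fell, and 7 of 19 class I genes rose and 4 fell, with Eprs counted by its glutamate enzyme, beside 31.3% and 36.4% of all genes tested.

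Among the mitochondrial genes, Aars2, Fars2 and Tars2 rose. Aars2, the alanine enzyme, had 21.2 and 19.7 CPM in naive cells, 53.9 and 58.7 in Th0, 46.6 and 50.7 in Th17 cells and 29.6 and 34 in Treg cells. Its log2 change to Th0 was 1.46 (SE 0.12, edgeR adjusted p = 5.99e-06), the only mitochondrial rise that also passed a test against a 2-fold change. Fars2, the phenylalanine enzyme, had 14.6 and 12.7 CPM in naive cells and 28.1 and 27.6 in Th0, a rise of 1.03 (SE 0.21, adjusted p = 0.00171). Of the exon bases of Fars2, 8.7% lie opposite exons of Nrn1 and 2% opposite those of Lyrm4. Tars2, the threonine enzyme, had 64.4 and 68 CPM in naive cells and 114 and 101 in Th0, a rise of 0.7 (SE 0.1, adjusted p = 0.000146). In Fars2 and Tars2 the Th17 and Treg libraries were again near the naive level, at 12.6 to 17.8 CPM for Fars2 and 71.5 to 76 CPM for Tars2.

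The mitochondrial genes that fell were Ears2, Rars2, Cars2, Yars2 and Hars2. Ears2, at chr7:122037213-122067263 (-), charges glutamate onto both its own tRNA and the tRNA of glutamine. It had 15.8 and 14.8 CPM in naive cells and 2.8 to 5.82 CPM in the 6 cultured libraries, with log2 -1.84 for Th0 (SE 0.3, edgeR adjusted p = 0.000458). Cars2, the cysteine enzyme, had 28.2 and 26.1 CPM in naive cells and 15.8 to 21.1 CPM in cultured ones, with log2 -0.62 (SE 0.14, adjusted p = 0.00328). Rars2 (arginine), Yars2 (tyrosine) and Hars2 (histidine) stood at -0.63, -0.6 and -0.58 (adjusted p = 0.0175, 0.0471 and 0.0142). Leaving out libraries ended these calls. Rars2 was lost without naive replicate 2 (adjusted p = 0.117) or Th0 replicate 3 (0.103), Hars2 without naive replicate 1 (0.0915), Th0 replicate 1 (0.0578) or Th0 replicate 3 (0.0643), and Yars2 without any of the 4 libraries compared (0.0604 to 0.204) and with DESeq2 (0.0835).

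The enzyme that turns the glutamyl-tRNA made by Ears2 into glutaminyl-tRNA is an amidotransferase encoded by Gatb, Gatc and Qrsl1, and the genes of its subunits are described beside Ears2. Gatb had 11 and 13 CPM in naive cells, 3.1 and 1.77 in Th0, 5.87 and 4.17 in Th17 cells and 8.38 and 6.06 in Treg cells. It fell in Th0 with log2 -2.29 (SE 0.32, edgeR adjusted p = 0.000169), and was lower in all 6 cultured libraries than in naive ones, as Ears2 was. Qrsl1 rose by 0.73 (adjusted p = 0.000319), from 21.2 and 20.7 CPM to 34.9 and 34.5, and Gatc, at 12.3 and 13.5 CPM in naive cells and 10.6 and 10.3 in Th0, did not pass. Beside every fall from naive cells stand the marker lists: all 12 B cell, all 19 myeloid and all 7 red blood cell markers fell in Th0 as well. Of the 7 NK cell markers, 6 fell and 1 rose. Beside the rises, 8 of 14 T cell markers were higher in Th0 and 0 lower. Their sum was 3970 and 4360 CPM in the naive libraries and 6270 and 5940 CPM in Th0. In the Th0 libraries 4 and 7 of the 19 myeloid markers were at 0 counts. The part of these other cells in the changes of synthetase genes was not tested.

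Over the 6 cultured libraries together, 15 of the 20 cytosolic genes lay above both naive libraries in every one, where 26.6% of all genes tested did. Of the 16 mitochondrial genes, 5 did (Aars2, Pars2, Sars2, Tars2 and Vars2) and 4 lay below both naive libraries in every one (Cars2, Ears2, Hars2 and Yars2), where 30.9% of all genes did. In Th17 against naive cells 15 cytosolic genes rose, led by Cars (1.9), Aars (1.67) and Sars (1.6), beside 30.4% of all genes (63.2% changed in either direction). In Treg against naive cells 17 rose, led by Cars (1.69), Aars (1.52) and Gars (1.42), beside 27.6% of all genes (56.6% changed in either direction). In both comparisons 0 cytosolic genes were called lower, with 0 at an unadjusted p under 0.05 and 0 with DESeq2. Mitochondrial genes split 2 higher and 4 lower in Th17 (32.8% of all genes lower), and 2 higher and 2 lower in Treg (29% lower), with Ears2 lowest in both at -1.81 and -1.52. These comparisons use the same naive libraries as the one of Th0, so their calls are not separate evidence.

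**Figure D3:**
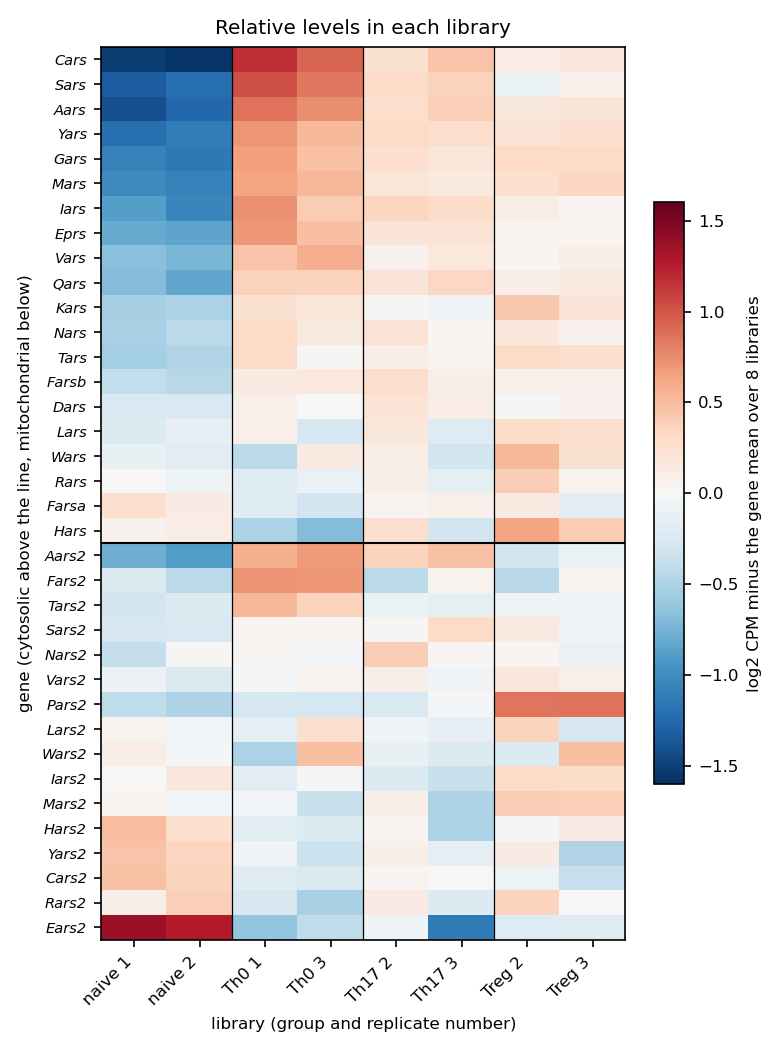
Level of each synthetase gene in each library relative to that gene's mean over the 8 libraries, as log2, with 1 row a gene and 1 column a library. Rows such as Cars, Sars, Aars and Yars are lowest in the naive columns and highest in Th0, while others, such as Hars, Kars, Lars, Tars and most mitochondrial rows, do not follow that order.

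Levels between genes were compared as CPM per kilobase of the principal GENCODE transcript. In naive cells the cytosolic genes ran from 9.82 to 60.6 with a median of 29, and the mitochondrial ones from 1.7 to 27.6 with a median of 7.58. In Th0 the cytosolic range was 19.5 to 171 with a median of 60.1, against 1.74 to 44.9 with a median of 8.12. Kars stood highest in naive cells at 60 and 61.2, followed by Nars at 52 and 55.1 and Dars at 52.2 and 52.4, which overlap each other. By the deposited FPKM the order in naive cells was another, with Nars (55.7 and 59.1) above Kars (46.7 and 47.7) and Dars ranked 6. Cars, at 9.97 and 9.66 per kilobase, was the lowest cytosolic gene in naive cells and ranked 25 of the 36 genes, against 29 by FPKM. In Th0 Sars led on both scales (182 and 160 per kilobase, 92.7 and 81.6 FPKM), with overlapping values of Nars by FPKM (89.4 and 79.7), and Cars ranked 11 per kilobase and 10 by FPKM. In Treg Kars (117 and 101) and Gars (101 and 101) led per kilobase, with overlapping values, whereas Nars (90.7 and 84.9) and Kars (92 and 79.9) led by FPKM, also overlapping. Wars2 had the lowest mean per kilobase in each group, at 1.17 to 2.31 over the libraries, which overlapped Mars2, Pars2 and Ears2 in Th0 and Ears2 in Th17. By FPKM the lowest was Pars2 in naive cells and Ears2 in the cultured groups.

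The summed CPM of the 20 cytosolic genes was 1830 and 1820 in naive cells, 4480 and 4110 in Th0, 3520 and 3460 in Th17 cells and 3400 and 3380 in Treg cells. The sum of the 16 mitochondrial genes was 440 and 441 in naive cells, 479 and 482 in Th0, 442 and 407 in Th17 cells and 480 and 468 in Treg cells. The cytosolic sums were highest in Th0 and lowest in naive cells with no overlap, while the mitochondrial sums of the naive libraries fell within those of the cultured ones. The ratio of summed cytosolic to summed mitochondrial levels, from the deposited FPKM (counts scaled by library total and gene length), was 4.65 and 4.79 in naive cells and 7.62 to 8.7 in the 6 cultured libraries. Per kilobase of the principal transcript it was 4.38 and 4.36 against 7.52 to 8.66, and from FPKM with Gars and Kars left out, since they serve both compartments, it was 3.79 and 3.91 against 6.12 to 6.94. No test was made of these sums.

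**Figure D4:**
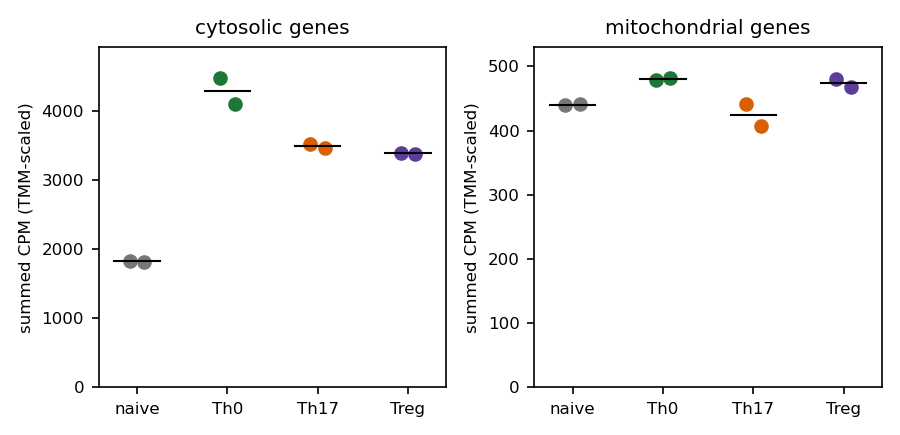
Summed CPM of the 20 cytosolic and the 16 mitochondrial synthetase genes in each of the 8 libraries, in separate panels whose axes start at 0 and differ in scale, with a line at each group mean. The cytosolic sum runs from 1820 to 4480 CPM and the mitochondrial sum from 407 to 482 CPM.

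Set against its mitochondrial counterpart per kilobase, a cytosolic gene mostly gained in stimulated cells. From naive to Th0, 12 of 15 such ratios rose in their mean, with a median log2 change of 0.68, as a description without a test. Among these, Lars to Lars2 (0.03) and Wars to Wars2 (0.06) had overlapping naive and Th0 libraries. The other 3 were Farsa to Fars2, which fell by log2 -1.48, Hars to Hars2 (-0.12) and Tars to Tars2 (-0.02). Cars to Cars2 went from 0.673 and 0.704 in naive cells to 6.85 and 5.94 in Th0, 3.05 and 3.65 in Th17 cells and 3.08 and 3.89 in Treg cells. The cytosolic cysteine gene was thus below its counterpart in naive cells and above it in every cultured library. Eprs to Ears2 went from 4.04 and 4.2 in naive cells to 45.3 and 33.7 in Th0, with 21.3 to 46.1 in the other cultured libraries, where Ears2 was low. Tars to Tars2 was 0.72 and 0.708 in naive cells, 0.731 and 0.676 in Th0, 0.994 and 0.967 in Th17 cells and 1.11 and 1.06 in Treg cells, so the naive and Th0 values overlapped. The levels of such ratios rest on the gene lengths used, and by the deposited FPKM Tars to Tars2 was 4.74 and 4.66 in naive cells and Cars to Cars2 0.345 and 0.361. Each scale uses 1 fixed length a gene, so the changes between groups do not turn on it, and by FPKM the cysteine ratio again lay above 1 in every cultured library, at 1.56 to 3.52.

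Th17 and Treg conditions were each set against Th0, and both comparisons use the same Th0 libraries. Most of the genes that led the rise in Th0 were lower in both. They were picked by that rise, which rests on the same Th0 libraries, so their falls are not separate evidence. In Th17 against Th0, 1 cytosolic gene was higher and 8 were lower (16.1% and 12.6% of all genes tested, 28.7% in either direction), with a median of -0.16 against 0.05 over all genes. In Treg against Th0, 2 were higher and 10 lower (25.7% and 20.6% of all genes, 46.2% in either direction), with a median of -0.17 against 0.09. Cars fell by 0.7 in Th17 (SE 0.11, edgeR adjusted p = 0.00192) and by 0.9 in Treg (SE 0.11, adjusted p = 0.000269). Sars fell by 0.61 (SE 0.1, adjusted p = 0.00232) and by 0.95 (SE 0.1, adjusted p = 0.000125). Aars fell by 0.47 (SE 0.09, adjusted p = 0.00453) and by 0.61 (SE 0.09, adjusted p = 0.000621). Cars, Sars and Aars did not overlap between Th0 and either condition, and each still stood above the naive libraries.

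Eprs had 153 and 149 CPM in naive cells, 431 and 373 in Th0, 308 and 310 in Th17 cells and 272 and 274 in Treg cells, with log2 changes from Th0 of -0.38 (adjusted p = 0.0115) and -0.56 (0.000941). Vars, at 427 and 465 CPM in Th0, had 327 and 350 in Th17 and 314 and 333 in Treg, with changes of -0.4 (adjusted p = 0.00789) and -0.46 (0.002). Mars, Gars and Yars were lower in Th17 by log2 values of -0.41, -0.33 and -0.32 and in Treg by -0.28, -0.25 and -0.37. Iars and Qars passed in Treg at -0.51 and -0.24. Cell type markers moved as well. In Th17 against Th0, 10 of 12 B cell markers were higher and 1 lower, 13 of 19 myeloid markers were higher and 0 lower, and 11 of 14 T cell markers were lower. In Treg against Th0, 15 of 19 myeloid markers were higher and 1 lower, 4 of 12 B cell markers were lower, and of 14 T cell markers 1 was higher and 6 lower. The T cell markers summed to 6270 and 5940 CPM in the Th0 libraries, against 4200 and 4360 for Th17 and 5080 and 5280 for Treg. The part of these cells in the synthetase results was not tested. Several of the smaller calls rested on single libraries or on the fit. With only the groups Th17 and Th0 in the fit, Gars (adjusted p = 0.0672), Yars (0.0729) and Hars (0.0649) did not pass, and with upper-quartile scaling Gars (0.0769) and Qars (0.0633) did not pass in Treg, nor did Qars without the filter on low counts (0.0638). Without Th0 replicate 1, Eprs (adjusted p = 0.0591), Gars (0.107) and Yars (0.15) did not pass in Th17, and Gars (0.146), Mars (0.0872) and Qars (0.077) did not pass in Treg. In Th17, Gars was also lost without Th17 replicate 3 (0.0782), and Yars without any 1 library except Th0 replicate 3 (0.056 to 0.15). In Treg, Gars, Mars and Qars were lost without either Treg library (0.066 to 0.211), Iars without replicate 3 (0.0519) and Yars without replicate 2 (0.0719). Leaving out naive replicate 1 or 2 ended the calls of Gars (0.0765 and 0.0846) and Qars (0.0729 and 0.0771), naive replicate 2 that of Mars (0.0525), and Th0 replicate 3 that of Qars (0.0977).

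Hars went against its class in both conditions. It rose from Th0 by 1.12 in Treg (SE 0.18, edgeR adjusted p = 0.00094) and by 0.62 in Th17 (SE 0.18, adjusted p = 0.0284). The Treg call held without any 1 library, whereas the Th17 call ended without Th0 replicate 1 (0.0641), Th0 replicate 3 (0.141) or Th17 replicate 2 (0.182). Rars was also higher in Treg than in Th0, at 83.6 and 66.5 CPM against 55.2 and 59.4 (log2 0.39, SE 0.13, adjusted p = 0.0387). That call ended without either naive library (0.0574 and 0.0546), without either Th0 library (0.214 and 0.0976), without Treg replicate 2 (0.285), and with DESeq2 (0.0776), RLE scaling (0.0655), no filter on low counts (0.0508) and only these groups in the fit (0.064).

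Among the 16 mitochondrial genes, 0 were higher and 2 lower in Th17 against Th0. The 0 higher held at an unadjusted p under 0.05 and with DESeq2. Of all genes tested, 16.1% were higher and 12.6% lower. The 2 falls are near that share and are not read as a result about the class. Tars2 fell by 0.57 (SE 0.1, edgeR adjusted p = 0.00256) and Fars2 by 0.87 (SE 0.21, adjusted p = 0.0136), the latter lost without Th0 replicate 1 (0.0518) or Th17 replicate 2 (0.0834). In Treg against Th0, 4 of the 16 mitochondrial genes were higher and 3 lower, shares near the 25.7% and 20.6% of all genes, and are not read as a result about the class. Aars2 fell by 0.83 (SE 0.12, adjusted p = 0.000655), Fars2 by 0.88 (SE 0.21, adjusted p = 0.00787) and Tars2 by 0.51 (SE 0.1, adjusted p = 0.0024). The call of Fars2 ended without Treg replicate 2 (0.0669). Aars2, Fars2 and Tars2 had each risen from naive to Th0, and the shared Th0 libraries enter both comparisons.

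The mitochondrial gene with the greatest rise in Treg was Pars2, which charges proline and lies at chr4:106651069-106655282 (+). It had 4.38 and 4.12 CPM in naive cells, 4.75 and 4.77 in Th0, 4.88 and 5.68 in Th17 cells and 10.5 and 10.6 in Treg cells. The Treg libraries stood apart from the other 6, and the change from Th0 was 1.15 (SE 0.21, edgeR adjusted p = 0.00194). Mars2 (methionine) and Rars2 (arginine) rose by 0.57 each (adjusted p = 0.0343 and 0.0402) and Iars2 (isoleucine) by 0.4 (0.0125). Those of Mars2, Rars2 and Iars2 ended without Treg replicate 2 (0.113, 0.245 and 0.0625), as well as without Th0 replicate 3 for Mars2 (0.219) and Rars2 (0.213), Th0 replicate 1 for Rars2 (0.0689) and Iars2 (0.122), and Treg replicate 3 for Mars2 (0.0953). That of Rars2 also ended with DESeq2 (0.0808), RLE scaling (0.0539) and limma-voom (0.0523). Of the exon bases of Iars2, 22.9% lie opposite exons of Rab3gap2, so its count may hold reads of that gene. Beside the Treg values, the summed level of the CD8 markers Cd8a and Cd8b1 was 426 and 469 CPM in Treg and 82 to 176 CPM elsewhere. The part of such cells in the result was not tested.

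Set directly against each other, Th17 and Treg cells differed in few synthetase genes. Of the cytosolic genes, 1 was higher and 1 lower in Th17 (14.8% and 14.5% of all genes tested, 29.2% in either direction), and of the mitochondrial genes 1 was higher and 2 lower. Sars was higher in Th17 by 0.34 (SE 0.1, edgeR adjusted p = 0.0299) and Kars lower, at 178 and 169 CPM against 236 and 203, by log2 -0.33 (SE 0.09, adjusted p = 0.0268). Without Th17 replicate 3 or Treg replicate 2, Sars (adjusted p = 0.109 and 0.206) and Kars (0.115 and 0.211) both failed the test, and Kars also with only these groups in the fit (0.0708). Aars2 was higher in Th17 by 0.61 (SE 0.12, adjusted p = 0.00576), a call that ended without Treg replicate 2 (0.0594). Pars2 was lower in Th17 with log2 -1 (SE 0.21, adjusted p = 0.00693) and Iars2 with -0.57 (SE 0.11, adjusted p = 0.00413), and both held without any 1 library. Iars2 had 74.8 and 68 CPM in Th17 and 107 and 106 in Treg. Hars stood at -0.5 (adjusted p = 0.0548) and passed with DESeq2 (0.03), with limma-voom (0.046), with no filter on low counts (0.00743) and without Th17 replicate 2 (0.00538), the Th17 library in which it was higher, at 70.8 CPM against 48.1. This comparison is also the test of whether the changes from Th0 differed between the conditions. Beside it, 10 of 12 B cell markers were higher and 1 lower in Th17 (summing to 1140 and 1330 CPM against 612 and 559 in Treg), 8 of 14 T cell markers were lower, and both CD8 markers were lower. Of the 19 myeloid markers, 4 were higher and 8 lower, and the part of these cells was not tested.

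**Figure D5:**
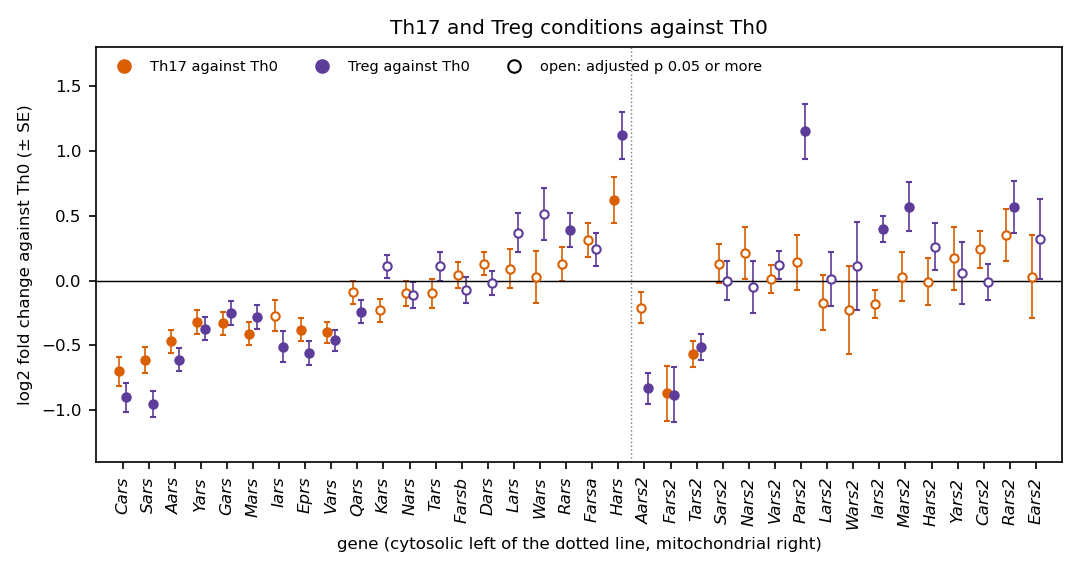
Log2 fold changes of Th17 against Th0 and of Treg against Th0 for each of the 36 synthetase genes, with bars of 1 standard error and filled points for genes that passed edgeR's adjusted p under 0.05. Both comparisons share the Th0 libraries, so their similarity is not read. Cars, Sars and Aars are below 0 in both, and Hars (0.62 and 1.12) is above 0 in both.

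The cytosolic genes whose promoter windows held the C/EBP-ATF letters were set beside the others as a description. All 5 rose in Th0 against naive, with a median of 1.67 and a range of 0.68 (Tars) to 2.14 (Aars). Of the 8 with a window and no match, 7 rose and 1 fell, with a median of 0.93 and a range of -0.45 (Farsa) to 2.21 (Sars). The 7 without a window in the table ran from -0.69 (Hars) to 2.59 (Cars). The ranges overlapped, and genes without the letters were among the greatest rises.

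The transcripts of the amino acid response were measured beside the synthetases, as a list of 27 sensors, factors and targets. In Th0 against naive, 22 rose and 2 fell (31.3% and 36.4% of all genes tested), with a median of 1.81. Atf4 itself had 215 and 219 CPM in naive cells, 564 and 492 in Th0, 305 and 392 in Th17 cells and 243 and 247 in Treg cells. It was highest in Th0 (log2 1.28 from naive, SE 0.12, edgeR adjusted p = 1.43e-05) and lower in Th17 (-0.6, adjusted p = 0.00625) and Treg (-1.11, adjusted p = 0.000154). Group means of Sars and Cars ran in the same order, as did those of Aars, Iars and Yars among the genes with the element. The order was not particular to them. Eprs (402, 309, 273 and 151 CPM in Th0, Th17, Treg and naive), Qars (228, 214, 193 and 105) and Aars2 (56.3, 48.7, 31.8 and 20.4), whose windows lack the element, also ran in it. Vars, which has no window, did too (446, 338, 323 and 192 CPM). The share of all genes with this order was not counted. Of the synthetase genes named in that order, only Sars and Aars2 were called between Th17 and Treg. Gars and Tars, which also hold the element, had higher means in Treg (240 and 137 CPM) than in Th17 (227 and 118 CPM). The protein of ATF4 is set mainly by translation, which RNA counts do not show. Asns, which makes asparagine and whose promoter window holds the same 8-letter element, had 4.24 and 3.47 CPM in naive cells, 146 and 114 in Th0, 113 and 106 in Th17 cells and 98.6 and 110 in Treg cells. It rose by 5.08 in Th0 (SE 0.17, adjusted p = 3.36e-08), and its values against Th0 were -0.25 in Th17 (adjusted p = 0.19) and -0.32 in Treg (0.0745).

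Other targets with great changes in Th0 were Pycr1, which makes proline (4.54), and Trib3, a pseudokinase that restrains ATF4 (3.75). Vldlr, a lipoprotein receptor, had 0 counts in both naive libraries and 2.38 and 2.54 CPM in Th0, at least 17.9-fold higher against a floor of 3 counts per library, and with it at that bound the median of the list was still 1.81. In Th17 against Th0, 2 of the 27 rose and 7 fell (16.1% and 12.6% of all genes tested). In Treg against Th0, 5 rose and 9 fell (25.7% and 20.6% of all genes). The death-linked factor Ddit3, whose gene overlaps Mars by 68 exon bases on the opposite strand, had 24.1 and 20.4 CPM in naive cells and 167 and 164 in Th0. It fell from Th0 by 1.15 in Th17 (adjusted p = 0.0065) and by 2.26 in Treg (0.000141). The cystine transporter Slc7a11 went the other way, with log2 -1.99 in Th0 against naive (adjusted p = 0.000835) and 2.28 in Treg against Th0 (0.000939), at levels of 0.792 to 5.44 CPM. In Th17 against Treg, 8 of the list were higher and 5 lower (14.8% and 14.5% of all genes tested). Atf4 was higher by 0.51 (edgeR adjusted p = 0.0133).

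Myc, whose protein binds E-boxes and drives growth genes, had 58.7 and 57.4 CPM in naive cells, 44.4 and 37.6 in Th0, 65.1 and 43.3 in Th17 cells and 80.4 and 76.1 in Treg cells. It was lower in Th0 than in naive cells on day 3 (log2 -0.5, edgeR adjusted p = 0.0281) and higher in Treg than in Th0 (0.93, adjusted p = 0.00238). Of the 9 genes of its network, 4 rose in Th0 and 2 fell, beside 31.3% and 36.4% of all genes tested. The greatest changes were those of Mxi1 (1.86) and Mxd3 (1.71), which encode repressors that pair with Max.

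Beyond charging, 8 factors of elongation, the step of protein synthesis that uses charged tRNA at the ribosome, were listed. All 5 cytosolic factors rose in Th0, beside 31.3% of all genes tested: Eef1g (1.69), Eef2 (1.5), Eef1a1 (1.15), Eef1b2 (1.04) and Eef1d (0.95). Of the mitochondrial factors Tufm, Tsfm and Gfm1, at 0.12, 0.02 and 0.26, none was called. Gfm1 came nearest (edgeR adjusted p = 0.053). In Treg against Th0 the 5 cytosolic factors fell, Eef1g by 0.86 and Eef2 by 0.71 the most, while Tufm and Tsfm rose by 0.45 and 0.7. Of all genes tested, 20.6% were lower and 25.7% higher in that comparison. In Th17 against Th0, 4 of the 8 fell (12.6% of all genes tested), and Eef1a1 and the 3 mitochondrial factors did not pass.

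Of 16 other genes of tRNA charging, editing and export, 7 rose in Th0 and 1, Gatb, fell, beside 31.3% and 36.4% of all genes tested. Aarsd1, which edits wrongly charged tRNA, rose by 1.49 and Xpot, which exports tRNA from the nucleus, by 1.26. In Treg against Th0, 4 rose and 4 fell. These counts are near the 25.7% and 20.6% of all genes tested and are not read as a result about the list. Gatb (1.55) and Gatc (0.79) were among the higher and Qrsl1 (-0.73) and Xpot (-0.52) among the lower. In Th17 against Th0, 2 rose (Gatb, 1.04, and Gatc, 0.5) and 2 fell (Xpot, -0.33, and Rtcb, a tRNA ligase, -0.28). Those counts are likewise near the 16.1% and 12.6% of all genes. Of the scaffold genes, Aimp1 fell from Th0 by 0.58 in Th17 (adjusted p = 0.00436) and by 0.64 in Treg (0.00144), and Aimp2 rose in Treg by 0.64 (0.0226).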

How the data were processed

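Total RNA of 8 libraries was extracted with TRIzol and sequenced on an Illumina HiSeq instrument, per the labels' protocols. The submitters' processing notes list the tools Bowtie2 and RSEM, with GRCm38.p6 and mm10 as builds. What each tool did, its version and the annotation release are not given in the sources used here. The table held, per the file headers, a read count and an FPKM value per gene and library. The deposited counts were whole numbers. Dividing each count by its library's total and by a constant length for the gene gave back 100% of the 134607 deposited FPKM values above 0 (relative tolerance 0.001), so these add nothing to the counts. Their lengths depart from transcript lengths, and levels between genes are therefore also given as CPM per kilobase of the principal GENCODE transcript, a choice made after seeing the data. By identifier, all 36 genes were found in GENCODE for GRCm38, and coordinates are those of the table.

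The count test was edgeR 4.0.16, with limma 3.58.1, under R 4.3.3: filterByExpr by group, TMM factors, 1 fit of 4 group means over all 8 libraries, and glmQLFTest on 4 residual degrees of freedom, with a common biological coefficient of variation of 0.13. Calls need a Benjamini-Hochberg adjusted p under 0.05 over 14690 genes, and SE is the log2 change divided by the square root of F. The code was tested on simulated counts. Alternatives were upper-quartile and RLE scaling, limma-voom, DESeq2 1.42.0, other filters, fits of 2 groups, a test for changes over 2-fold, a block for the replicate number, removal of marker genes, and leaving out each library. Full statistics go to the called genes with the greatest changes (up to 6 cytosolic and 4 mitochondrial per direction and comparison) and to genes moving against their class. Of other lists, up to 4 called genes per comparison are named, beside Atf4, Myc, Asns and the scaffold genes. Some genes picked by this rule are left out of the text. Other genes named were chosen after their values were seen. The genes and lists were chosen with earlier results of these data known.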

Additional observations from a re-analysis of the deposited data

How the results depend on the processing

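In each of 18 alternatives, 0 of 216 gene comparisons (36 genes in 6 comparisons) reversed direction after a call. The counts of called genes moved by over 1.5 times as follows. Tested against a 2-fold change, cytosolic genes higher and lower were 9 and 0 in Th0 against naive, 0 and 0 in Th17 against Th0, in Treg against Th0 and in Th17 against Treg, 7 higher in Th17 against naive and 6 higher in Treg against naive. Mitochondrial genes under that test were 1 and 1 in Th0 against naive, 0 lower in Th17 against Th0, 0 and 0 in Treg against Th0, in Th17 against Treg and in Treg against naive, and 1 and 1 in Th17 against naive. Over all genes, calls against naive went from 9942 to 4231 for Th0, from 9287 to 3580 for Th17 and from 8312 to 2983 for Treg. Calls against Th0 went from 4211 to 482 for Th17 and from 6790 to 930 for Treg, and those between Th17 and Treg from 4294 to 456. That test asks for more than a difference from 0, so fewer calls follow from its construction.

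In the other settings the cause was not tested. Cytosolic genes higher in Treg against Th0 were 1 with RLE scaling, DESeq2 and a fit of the 2 groups, and cytosolic genes higher in Th17 against Th0 were 0 in the 2-group fit. Cytosolic genes lower in Th17 against Treg were 2 with DESeq2 and limma-voom, 3 without a filter on low counts and 0 in the 2-group fit. Mitochondrial genes higher in Th17 against naive were 1 with RLE scaling, DESeq2, no filter and the 2-group fit, and those higher in Treg against naive were 4 in the 2-group fit. Leaving out the marker genes of other cell types, or keeping only genes at 5 CPM in 2 libraries, changed 0 of the 216. Leaving out marker genes takes no reads of other cells from the synthetase genes, so it does not test the part of those cells.

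The replicate numbers name libraries, and no label says that they mark a shared animal or day. The deviations of same-numbered Th17 and Treg libraries correlated at 0.122 over only 2 numbers, so the pairing was not established. With the replicate block, cytosolic genes were 4 lower in Th17 against Th0, 1 higher in Treg against Th0 and 2 lower in Th17 against Treg. The calls lost in Th17 against Th0 were those of Mars (adjusted p = 0.052), Eprs (0.0636), Gars (0.0962) and Yars (0.111). Mitochondrial genes with the block were 2 higher in Treg against Th0, and 1 higher and 2 lower in Th17 against naive. Over all genes the block gave 9200 calls against 9942 in Th0 against naive, 3101 against 4211 in Th17 against Th0 and 5599 against 6790 in Treg against Th0.

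Leaving out 1 library at a time, cytosolic genes higher and lower ranged over 14 to 15 and 1 to 2 in Th0 against naive, 0 to 1 and 5 to 9 in Th17 against Th0, 1 to 4 and 6 to 10 in Treg against Th0, 0 to 1 and 0 to 3 in Th17 against Treg, 15 to 15 and 0 to 1 in Th17 against naive, and 14 to 18 and 0 to 0 in Treg against naive. Mitochondrial genes ranged over 3 to 3 and 2 to 5, 0 to 0 and 1 to 2, 1 to 4 and 2 to 3, 0 to 1 and 2 to 5, 1 to 2 and 1 to 4, and 2 to 4 and 2 to 3 in the same order. The lone library left in a group was assumed to vary like the other groups. Over all genes, calls in Th17 against Treg fell from 4294 to 1878 without Treg replicate 2, 2444 without Th17 replicate 3 and 2877 without Treg replicate 3, and those in Th17 against Th0 from 4211 to 2630 without Th17 replicate 2 and to 2798 without Th0 replicate 3. Calls in Th17 against Treg were 3540 in the 2-group fit.

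The log2 change of the cytosolic to mitochondrial ratio was 0.8 in Th0 against naive, and 0.94 per kilobase of the principal transcript and 0.97 by medians of relative levels. In Th17 against Th0 it was -0.07, and -0.17 by medians. In Treg against Th0 it was -0.03, and -0.15 per kilobase and -0.27 by medians. With 2 libraries a group, genes of low count such as Wars2 and Ears2 carry the widest errors, with SE of 0.33 and 0.3 in Th0 against naive.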
